A study of Mus musculus with 2 samples.

Results

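The cells described here are immature conventional dendritic cells, as set by counts of a few genes, in YUMMER1.7 melanomas grown in a wild-type mouse background and in a Siah2-/- background. A barcode of the deposited count table was taken when it held at least 1 unique molecular identifier (UMI, a counted transcript molecule) of Flt3 or at least 2 of Cd209a, at least 5 UMIs of the MHC class II gene H2-Ab1, and 0 UMIs of Ccr7, of the CD3 genes Cd3d, Cd3e and Cd3g, and of Ncr1. The rule found 160 cells among 10100, of which 92 of 4524 came from the wild-type (WT) library and 68 of 5576 from the Siah2-/- library. They are called gated cells below.

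The study grew YUMMER1.7, a mouse melanoma line with a Braf mutation, under the skin of male C57BL/6 mice aged 8 weeks, and took the tumors after 11 days. The hosts were WT or germline Siah2-/-, and the implanted tumor cells carried their own genotype. CD45-positive cells were sorted and mixed with CD45-negative cells at 5 to 1, and each genotype gave a single droplet library of 3′ transcript tags. How many tumors stand behind each library is not stated in the labels or methods. With 1 library per genotype there is no replicate of either genotype, so no p-value is given, and a difference between the libraries cannot be told apart from a difference between the animals, sorts or library preparations. Fewer cells of a kind and a different yield of those cells from the sort cannot be told apart either.

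Conventional dendritic cells take up antigen, display it on MHC class I and class II molecules, and prime T cells. They form from precursors that depend on the receptor FLT3. The cDC1 branch, driven by IRF8 and BATF3 and marked by XCR1 and CLEC9A, cross-presents antigen to CD8 T cells, and the cDC2 branch, marked by SIRPA and in part by CD209a and CLEC10A, presents mainly to CD4 T cells. After activation the cells raise CCR7 and FSCN1 and leave for the lymph node, and the rule leaves out cells with a counted Ccr7 transcript. SIAH2 is a RING-type ubiquitin ligase that marks prolyl hydroxylases and other proteins for degradation.

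The count table held 64885015 UMIs in the WT cells and 59174401 in the Siah2-/- cells, and its shallowest cell had 6670 UMIs in WT and 4896 in Siah2-/-. The gated cells held 1126966 UMIs in WT, from 6780 to 33526 per cell around a median of 9490, and 652800 in Siah2-/-, from 5153 to 24803 around 8910. The median share of mitochondrial counts was 1.28% and 1.38%, and no gated cells shared a barcode between the libraries. Siah2 itself (ENSMUSG00000036432) gave 664 UMIs among all WT cells, or 10.2 CPM (UMIs of a gene per 1000000 UMIs of the cells named), and 506 among all Siah2-/- cells (8.55 CPM). Among the gated cells it had 21 UMIs in 18 WT cells, at most 2 per cell, and 3 UMIs in 3 Siah2-/- cells, which is 18.6 and 4.6 CPM with a log2 ratio of Siah2-/- over WT of -2.02 (95% interval -4.41 to -0.28). In barcodes with 1 to 100 UMIs, which stand for free RNA, the order was the other way, with 9.96 CPM in WT and 16.3 CPM in Siah2-/-. Where these 3′ tags lie relative to the deleted part of the gene is not stated, so the counts do not check the labels, and the second group is the library labelled Siah2-/- throughout. The paralogs Siah1a (3 and 3 UMIs in WT and Siah2-/-) and Siah1b (4 and 2) were too sparse to compare.

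All intervals here are exact 95% intervals of counting error (Clopper-Pearson for shares, Poisson for CPM, conditional binomial for ratios of counts), or Newcombe intervals built from Wilson limits for differences between shares in percentage points. They cover no variation between animals. Intervals of CPM and of gene ratios treat each UMI as independent, so they cover no variation between cells either. Where few cells hold most UMIs of a gene, they understate the uncertainty.

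The values of the rule's own genes describe the choice of cells and are not a result. Flt3 was counted in 69 WT and 54 Siah2-/- gated cells, with no more than 6 UMIs in any cell of either library. Cd209a, a C-type lectin, was counted in 36 cells of each library and reached 44 UMIs in a WT cell and 34 in a Siah2-/- cell, with 10 or more UMIs in 12 WT and 17 Siah2-/- cells. The middle H2-Ab1 value was 165 UMIs in WT cells and 149.5 in Siah2-/- cells. The cells entered by Flt3 alone in 62 WT and 33 Siah2-/- cases, by Cd209a alone in 23 and 14, and by both in 7 and 21. Just inside the thresholds lay 28 WT and 22 Siah2-/- cells with a single Flt3 UMI and under 2 of Cd209a, 5 and 2 with exactly 2 Cd209a UMIs and no Flt3, and 5 and 6 with H2-Ab1 between 5 and 9. Just outside lay 7 WT and 15 Siah2-/- cells with 1 Cd209a UMI and no Flt3, 5 and 16 with H2-Ab1 between 1 and 4, and 1 and 1 with a single Ccr7 UMI.

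The label was checked against markers of dendritic and other cells. Genes common to dendritic cells summed to 32817 CPM in the WT and 37940 CPM in the Siah2-/- gated cells, against 8087 and 10404 CPM in free RNA 509 and 788 CPM in T cells and 24800 and 29512 CPM in macrophages. The invariant chain gene Cd74 gave 30398 and 35758 CPM of that sum, so the sum says little about the difference from macrophages, which genes of the lineage itself show better. H2-Oa, which with its partner restrains peptide loading by H2-DM, had 258 and 225 UMIs (229 and 345 CPM) against 18.8 and 23.9 CPM in free RNA and 7.86 and 10.0 CPM in macrophages. Clec10a, a galactose-binding lectin, had 172 and 220 UMIs (153 and 337 CPM) against 17.0 and 18.9 CPM in free RNA and 26.8 and 16.4 CPM in macrophages. Zbtb46, a transcription factor that marks the conventional lineage, had 40 UMIs in 32 WT cells and 24 in 19 Siah2-/- cells, near 35.5 and 36.8 CPM, against 2.54 and 2.32 CPM in free RNA and 0.507 and 0.119 CPM in macrophages. Defining genes of B cells were at or near 0, with no Ms4a1 UMI in either library and 0 and 1 UMIs of Cd79a. The melanocyte gene Mlana had 0 and 1 UMIs. Of monocyte genes, Vcan had 3 and 1 UMIs, while Plac8 had 2821 and 1894, Ly6c2 668 and 271, and the chemokine receptor gene Ccr2 175 and 152.

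The gate also held cells with genes of other lineages, and these were not spread evenly between the libraries. The complement genes C1qa, C1qb and C1qc, typical of macrophages, summed to 10 or more UMIs in 18 WT cells (19.6%) and 3 Siah2-/- cells (4.41%), a difference of -15.2 percentage points (95% interval -24.9 to -4.81). Siglech, which defines plasmacytoid dendritic cells, was counted in 13 WT (14.1%) and 6 Siah2-/- (8.82%) cells, and it had 10 or more UMIs in 8 and 2 of them. Ly6c2, high in monocytes and plasmacytoid cells, had 10 or more UMIs in 23 of 92 WT and 9 of 68 Siah2-/- cells (13.2%). Gated cells with none of the 3 signs numbered 55 of 92 in WT (59.8%) and 54 of 68 in Siah2-/- (79.4%), a difference of 19.6 points (5.10 to 32.5). Fcgr1, a macrophage gene outside these signs, was counted in 62 WT (67.4%) and 41 Siah2-/- (60.3%) cells. It stood at 358 and 285 CPM, against 226 and 238 CPM in free RNA. Cells with none of the 3 signs thus still include cells with Fcgr1. Below, cells carrying other lineage genes are those with at least 1 of the 3 signs. The label therefore covers a mixture, with more cells carrying genes of other lineages in WT, and most list counts below are also given without those cells. The part of these cells in the other differences was not tested beyond that. Over whole marker lists, macrophage genes summed to 8586 CPM in WT and 2310 CPM in Siah2-/- (median cell 1226 and 1143 CPM), against 41350 and 28520 CPM in macrophages. Monocyte genes summed to 4536 and 5081 CPM, above free RNA (3725 and 4495 CPM) and macrophages (3904 and 4533 CPM). Plasmacytoid genes summed to 1444 and 1314 CPM and ranged from 0 to 19028 CPM over WT cells and from 0 to 17398 CPM over Siah2-/- cells. Lists for T and natural killer cells (236 and 251 CPM), tumor and stroma (154 and 337 CPM) and neutrophils (44.4 and 65.9 CPM) lay below their level in free RNA, which was 3847 and 5467, 1191 and 1379, and 337 and 684 CPM.

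The gated cells made up 2.03% of the cells in WT (1.64 to 2.49) and 1.22% in Siah2-/- (0.95 to 1.54), a log2 ratio of -0.74 (-1.21 to -0.27). Among cells with a UMI of Ptprc, the gene for CD45, 86 of 3545 WT cells (2.43%) and 64 of 5134 Siah2-/- cells (1.25%) passed, a log2 ratio of -0.96 (-1.45 to -0.48). Without the cells that carried other lineage genes, 55 and 54 remained, and the log2 ratio of -0.33 (-0.90 to 0.24) included 0. The same held when every cell was thinned to 4000 UMIs before the rule was applied, which left 62 WT and 59 Siah2-/- cells (log2 ratio -0.37, -0.91 to 0.16), and when the Cd209a arm of the rule was used alone, with 30 and 35 cells (-0.08, -0.82 to 0.67). Over the same cells, macrophages formed 29.7% of WT and 13.7% of Siah2-/- cells, T cells numbered 680 of 4524 and 1443 of 5576, and mature Ccr7-positive dendritic cells numbered 15 and 25 (log2 ratio of the share 0.44, -0.54 to 1.46).

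**Figure D1:**
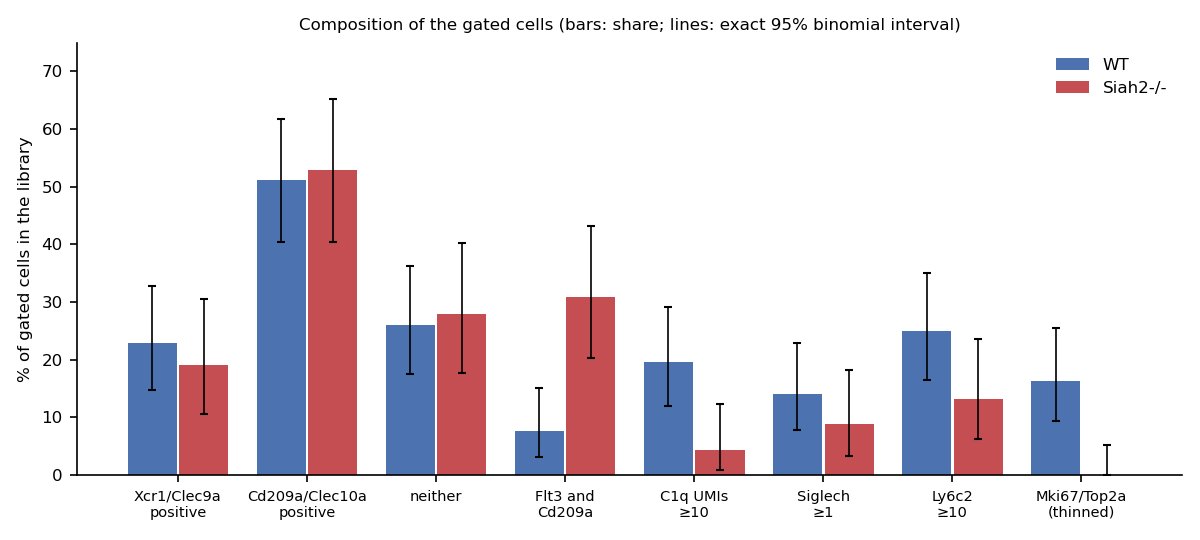
Bars give the percentage of gated cells in each library (WT blue, Siah2-/- red) that belong to each set, and lines give the exact 95% binomial interval. Cells with high C1q made up 19.6% of the gated cells in WT and 4.41% in Siah2-/-, cells that entered by both Flt3 and Cd209a 7.61% and 30.9%, and cells with Mki67 or Top2a after thinning 16.3% and 0.

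Split by branch markers, the gated cells held 21 WT and 13 Siah2-/- cells with a UMI of Xcr1 or Clec9a, the cDC1-type cells. A further 47 WT and 36 Siah2-/- cells had Cd209a or Clec10a and neither cDC1 marker, and 24 and 19 had none of the 4 genes. The cDC1-type share was 22.8% in WT and 19.1% in Siah2-/-, a difference of -3.71 points whose interval ran from -15.9 to 9.45 (log2 ratio of the share -0.26, and -1.33 when gated cells were thinned to 4000 UMIs before the split), and the Cd209a/Clec10a-positive share was 51.1% and 52.9%. As a share of all cells, the cDC1-type cells were 0.46% in WT and 0.23% in Siah2-/-, a log2 ratio of -0.99 (-2.11 to 0.07). The cDC1-type cells differed in depth between the libraries, the median being 17556 UMIs for WT and 9327 for Siah2-/-, while the Cd209a/Clec10a-positive cells had medians of 8045 and 8314. In the Cd209a/Clec10a-positive set 10 of 47 WT cells had Siglech, 10 had high C1q and 17 had high Ly6c2, against 3, 2 and 5 of 36 in Siah2-/-.

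Genes that the split did not use separated these sets in both libraries. In cDC1-type against Cd209a/Clec10a-positive cells, 14 of 1172 genes (1.19%) were at least 2-fold higher in both libraries and 87 (7.42%) at least 2-fold lower. The cDC1-type cells had higher Cd24a, a surface sialoglycoprotein, with log2 ratios of 3.95 in WT and 3.27 in Siah2-/-. Ppt1, a lysosomal thioesterase (2.90 and 3.28), Irf8, the factor that drives the branch (1.91 and 2.52), Naaa, a lysosomal amidase (2.20 and 1.67), and Id2, a helix-loop-helix inhibitor (1.49 and 1.21), were higher too. The Cd209a/Clec10a-positive cells had higher Sirpa, the inhibitory receptor that marks cDC2 (-5.54 and -2.85), and higher Cxcl10, a CXCR3 ligand (-5.47 and -3.11). Macrophage genes were higher in this set too, with Fcgr1 at -3.93 and -1.67, Csf1r at -3.10 and -2.46 and C1qa at -2.26 and -1.77. The set is therefore not made of cDC2 alone. Because the sets came from the same cells' counts, these values describe the split and no test stands behind them.

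**Figure D2:**
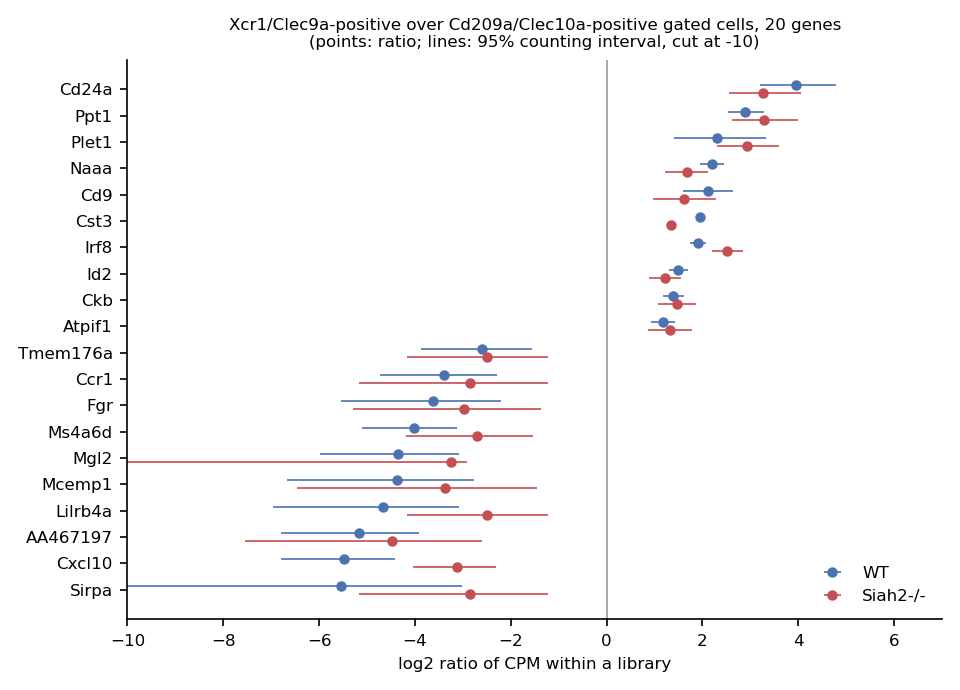
The x axis is the log2 ratio of CPM in cDC1-type over Cd209a/Clec10a-positive gated cells within the WT (blue) and the Siah2-/- (red) library, for 20 named genes, with lines for the 95% counting interval. The 10 genes with positive ratios and the 10 with negative ratios lie on the same side in both libraries. This follows from their choice, since genes were ranked by the smaller in size of their WT and Siah2-/- ratios. The Siah2-/- value of Mgl2 is set against 0 UMIs in the cDC1-type cells and is a bound.

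The gated cells were set beside the populations most like them to see where they stood. Of 2374 genes compared with mature Ccr7-positive dendritic cells, 176 (7.41%) were at least 2-fold higher in the gated cells in both libraries and 137 (5.77%) at least 2-fold lower. Higher in the gated cells were Kmo, an enzyme of tryptophan breakdown (log2 ratio 3.90 in WT and 4.17 in Siah2-/-), Wdfy4, needed for cross-presentation (3.74 and 3.76), and Naaa (3.71 and 3.12). Higher in the mature cells were Cacnb3, a calcium channel subunit (-5.65 and -7.74), Cd200, an inhibitory ligand (-4.77 and -5.77), the cytokine-signal inhibitor Socs2 (-4.46 and -5.09) and Il4i1, an amino acid oxidase (-4.30 and -6.02). Against Mgl2-positive macrophages, 150 of 4830 genes (3.11%) were at least 2-fold higher in the gated cells in both libraries and 224 (4.64%) at least 2-fold lower. Cd24a (6.04 and 5.47), the lymphoid factor Bcl11a (4.74 and 5.49) and H2-Oa (4.32 and 4.40) stood on the dendritic side. The scavenger receptor Msr1 (-2.63 and -4.27) and the chemokine Pf4 (-3.01 and -4.88) stood on the macrophage side. These populations were also defined by counts of marker genes, so the values are a description.

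Between the genotypes, 2285 genes had at least 100 UMIs over the gated cells of both libraries together. Of these, 70 (3.06%) were at least 2-fold higher in Siah2-/- and 50 (2.19%) at least 2-fold lower, and the median log2 ratio was -0.07. Ratios above 0 numbered 948 and ratios below 0 numbered 1337. These shares are the background against which each gene list is read below. A gene can pass the minimum through the library where it is high, so the counts and medians describe the genes that passed and not whole lists. With no minimum, the median log2 ratio over the list genes that had a ratio was 0.88 for immediate early and heat shock genes, -0.71 for cDC1 genes, 0.47 for cDC2 genes, -0.96 for mature dendritic cell genes, -1.02 for macrophage genes, -1.07 for S phase genes and -2.71 for G2/M genes. Without the cells that carried other lineage genes, 1572 genes were left, of which 72 (4.58%) were higher and 26 (1.65%) lower by the same measure. The median ratio over all genes stood at -0.0714 and was moved to 0 in an alternative scaling, and the split then became 84 higher and 43 lower.

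**Figure D3:**
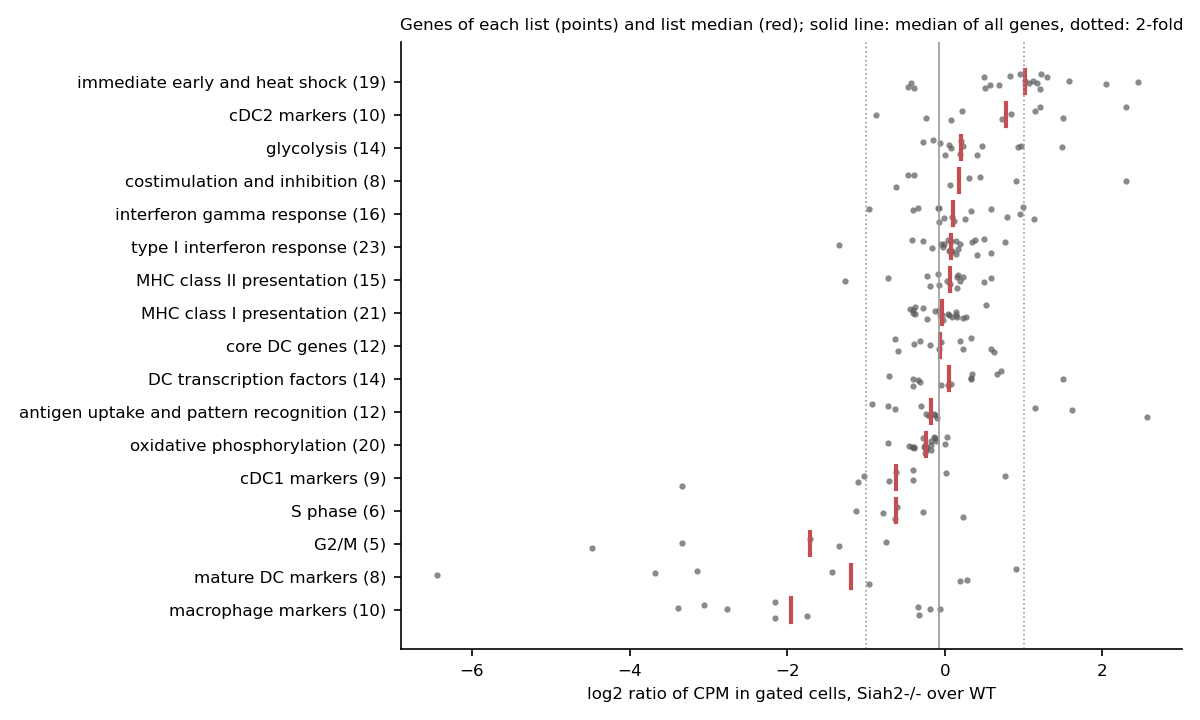
Points are genes with at least 100 UMIs, placed by the log2 ratio of CPM in the gated cells, Siah2-/- over WT, in rows by list with the number of genes in brackets. Red bars are list medians, the solid line is the median of all genes and the dotted lines mark 2-fold. The immediate early and heat shock list has its median at 1.01, and the macrophage list at -1.95.

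Immediate early and heat shock genes formed the list with the most members at least 2-fold higher in Siah2-/-. These genes encode fast-acting transcription factors, phosphatases and chaperones that cells make within minutes of stimulation or stress, tissue dissociation included. Of 24 listed genes, 19 passed the count minimum, 10 were at least 2-fold higher in Siah2-/- and none at least 2-fold lower, against 3.06% and 2.19% of all genes tested. The median log2 ratio of the list was 1.01 against -0.07 over all genes. Without cells carrying other lineage genes, 11 of 18 were at least 2-fold higher, with a median of 1.06.

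Hspa1a, the inducible HSP70 chaperone, was counted in 9 of 92 WT cells, the highest with 8 UMIs and the next with 5, 5 and 4, and in 20 of 68 Siah2-/- cells, the highest with 17, 16 and 14. Cells with 10 or more Hspa1a UMIs were 0 in WT and 3 in Siah2-/-, and most cells of either library had none. It summed to 26.6 CPM in WT and 146 CPM in Siah2-/-, a log2 ratio of 2.45 (1.85 to 3.09). Klf2, a Kruppel-like factor that restrains activation, was counted in 26 WT cells, 2 of them with 10 or more UMIs, and in 34 Siah2-/- cells, 12 of them with 10 or more. Its level was 85.2 CPM in WT and 352 CPM in Siah2-/-, a log2 ratio of 2.05 (1.70 to 2.41). The libraries overlapped for both genes, and the cells with most UMIs of each were in Siah2-/-.

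Atf3, a stress-induced repressor, had 123 and 368 CPM (log2 ratio 1.58, 1.27 to 1.89). Dusp1, a phosphatase that switches off MAP kinases, had 560 and 1371 CPM (1.29, 1.14 to 1.44). Fos, a subunit of AP-1, had 1329 and 2894 CPM (1.12, 1.02 to 1.22). The AP-1 and early factors Fosb (1.22), Nr4a1 (1.21) and Egr1 (1.16), the survival gene Ier3 (1.07) and the mRNA-destabilising Zfp36 (1.01) were also at least 2-fold higher. Junb (0.95), Ier2 (0.82), Jund (0.69), Btg2 (0.57), Jun (0.52) and Klf6 (0.49) were higher by less. The chaperones Hsp90aa1 (-0.39), Hspe1 (-0.43) and Hspd1 (-0.47) were lower.

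The same direction was present in both branches and outside the gate. Within the cDC1-type cells 7 of 15 list genes with 50 or more UMIs were at least 2-fold higher and 1 at least 2-fold lower, where 5.53% and 6.58% of all genes were. Within the Cd209a/Clec10a-positive cells the counts were 11 and 0 of 19, where 3.67% and 4.56% of all genes were. The list's median log2 ratio was 0.98 in the cDC1-type cells and 1.06 in the Cd209a/Clec10a-positive cells. It was 0.58 in macrophages, 0.46 in mature dendritic cells and 0.81 in T cells of the same libraries. Free RNA moved with it: Hspa1a had 27.0 CPM in WT and 91.3 CPM in Siah2-/- free RNA, Klf2 125 and 253, Dusp1 447 and 911. The part that free RNA, or handling that differed between the libraries, has in the values of the gated cells was not tested. When a share of the free RNA profile equal to 5% of each library's counts was subtracted, and in the other alternatives run, 17 in all, the list's median lay between 0.82 and 1.16.

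**Figure D4:**
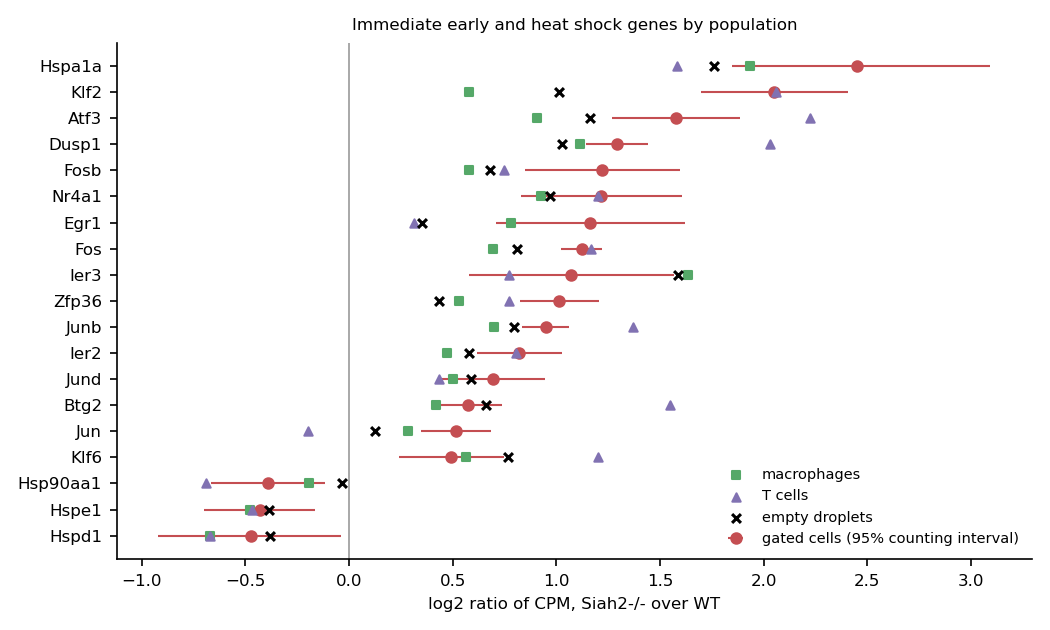
The x axis is the log2 ratio of CPM, Siah2-/- over WT, for each of 19 immediate early and heat shock genes in gated cells (red, with the 95% counting interval), macrophages (green), T cells (purple) and free RNA (crosses, labelled empty droplets). In the gated cells 16 genes lie above 0 and 3 below, against 948 and 1337 of all 2285 genes tested. Most values of the other populations lie on the same side.

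The promoters of 4 of the higher genes are shown for reference, with the letters of 2 motifs known from stress and early response promoters. Each is the 250 bases before the transcription start in RefSeq on GRCm38.p6, read 5′ to 3′ on the strand of the gene. Capitals in Fos (chr12:85473640-85473889, plus strand), Atf3 (chr1:191183334-191183583, minus strand) and Dusp1 (chr17:26508473-26508722, minus strand) mark the core of the cyclic AMP response element, TGACGT or its reverse complement ACGTCA. Capitals in Hspa1a (chr17:34972157-34972406, minus strand) mark a heat shock element, GAANNTTC.
Fos: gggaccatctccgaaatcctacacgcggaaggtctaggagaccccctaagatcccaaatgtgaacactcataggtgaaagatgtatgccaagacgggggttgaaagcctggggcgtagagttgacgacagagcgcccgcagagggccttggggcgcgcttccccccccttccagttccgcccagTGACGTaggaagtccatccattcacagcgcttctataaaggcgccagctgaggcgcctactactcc
Atf3: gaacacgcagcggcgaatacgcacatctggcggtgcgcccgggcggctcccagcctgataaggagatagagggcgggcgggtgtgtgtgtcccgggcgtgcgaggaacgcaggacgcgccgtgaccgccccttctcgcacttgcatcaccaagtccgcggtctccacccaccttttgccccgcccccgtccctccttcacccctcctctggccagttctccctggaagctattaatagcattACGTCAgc
Dusp1: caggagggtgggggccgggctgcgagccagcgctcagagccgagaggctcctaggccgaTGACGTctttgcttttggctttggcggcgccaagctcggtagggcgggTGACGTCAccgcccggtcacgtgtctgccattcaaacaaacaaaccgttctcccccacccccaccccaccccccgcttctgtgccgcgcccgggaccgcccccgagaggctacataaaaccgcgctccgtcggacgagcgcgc
Hspa1a: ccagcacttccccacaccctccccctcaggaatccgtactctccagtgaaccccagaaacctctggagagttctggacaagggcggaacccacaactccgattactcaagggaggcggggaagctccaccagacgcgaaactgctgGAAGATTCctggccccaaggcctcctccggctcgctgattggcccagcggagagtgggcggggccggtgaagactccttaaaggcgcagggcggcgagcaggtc

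The Fos match began 66 bases before the start, the Atf3 match 8 bases before it, and the Hspa1a element 104 bases before it. Dusp1 had 3 matches, 191, 143 and 141 bases before the start, of which the last 2 overlap as the palindrome TGACGTCA read on both strands. On either strand the cyclic AMP core was present in 2125 of 32851 RefSeq promoters of this length (6.47%) and a heat shock element (GAANNTTC or TTCNNGAA) in 4218 (12.8%). Of the 10 list genes at least 2-fold higher in Siah2-/-, 9 matched a promoter, and 3 of these had the cyclic AMP core and 1 the heat shock element. Over the list, 16 of 19 genes matched, with 4 and 4. Hspe1 and Hspd1, which were lower in Siah2-/-, had 3 heat shock element matches each. For Hspd1, which has 2 listed promoters, this is the number in the promoter with most matches. A match describes the letters of the window and no more.

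Of 16 cDC1 genes listed, 9 passed the minimum, and of these 3 were at least 2-fold lower and none at least 2-fold higher. Above 0 lay 2 of the 9, where 948 of all 2285 genes did. The median log2 ratio was -0.62 (9 genes, 4 lower, median -0.85, without cells carrying other lineage genes). Xcr1, the receptor for XCL1 that cDC1 use to find CD8 T cells and natural killer cells, had the lowest ratio of them. It was counted in 19 WT and 3 Siah2-/- cells, with 139 and 8 UMIs, or 123 and 12.3 CPM, a log2 ratio of -3.33 (-4.57 to -2.31), and free RNA held 1.76 and 0.93 CPM. Clec9a, a receptor for dead cells, was counted in 15 WT and 13 Siah2-/- cells, with 30 and 22 UMIs and a log2 ratio of 0.34 (-0.52 to 1.18). Of the cDC1-type cells, 19 of 21 in WT and 3 of 13 in Siah2-/- thus had Xcr1, and 15 of 21 and 13 of 13 had Clec9a.

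Within the cDC1-type cells, where a UMI of Xcr1 or Clec9a is part of the definition, Xcr1 was at 390 CPM in WT and 63.7 CPM in Siah2-/-, and Clec9a at 84.1 and 175 CPM. Naaa was at 1576 and 756 CPM there (log2 ratio -1.06, -1.39 to -0.74), Ppt1 at 1077 and 732 CPM (-0.56, -0.90 to -0.23), and Irf8 at 2807 and 2013 CPM (-0.48, -0.68 to -0.28). Over the whole gate the ratios were -1.11 (-1.33 to -0.89) for Naaa, -1.03 (-1.31 to -0.76) for Ppt1 and -0.71 (-0.85 to -0.56) for Irf8. The ratio of Naaa was -0.22 with the Cd209a arm of the rule alone and that of Ppt1 -0.41 after thinning before the rule. Batf3, the partner of Irf8 in this branch, had 114 and 50 UMIs and a log2 ratio of -0.40 whose interval, -0.91 to 0.09, included 0. Ifi205, an interferon-induced gene on the same list, was higher in Siah2-/- (0.76, 0.52 to 1.00).

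Of 10 cDC2 genes tested, 4 were at least 2-fold higher in Siah2-/- and none at least 2-fold lower, with a median log2 ratio of 0.78. Without cells carrying other lineage genes the count was 1 of 6, with a median of 0.37. Tnfsf9, which encodes the T-cell costimulatory ligand 4-1BBL, was counted in 21 cells of each library. It had 29 UMIs in WT and 83 in Siah2-/-, or 25.7 and 127 CPM, a log2 ratio of 2.30 (1.68 to 2.97). The median cell of either library had none. The highest WT cell held 3 UMIs, and the highest Siah2-/- cells held 22, 15 and 8. The other members past 2-fold were Klf4, a Kruppel-like factor needed by part of the branch (38 and 62 UMIs, 1.49), Cd7 (119 and 274 CPM, 1.21) and Clec10a (1.14, 0.85 to 1.44). Each of these was under 2-fold in at least 1 alternative, Klf4 at 0.84 and Cd7 at 0.11 after thinning before the rule and Clec10a at 0.92 with each cell weighted equally, while Tnfsf9 stayed at 2.02 or above. Sirpa had 79.0 and 130 CPM (0.72, 0.28 to 1.17), while Kmo (0.22), Zeb2 (0.08), Mgl2 (-0.23) and Clec12a (-0.87) made up the lower part of the list. Cd209d, a lectin of the same gene cluster as Cd209a and close to it in sequence, had 29 UMIs in 7 WT cells and 99 UMIs in 13 Siah2-/- cells (25.7 and 152 CPM, log2 ratio 2.56, 1.95 to 3.21, and 0.91 after thinning before the rule), and reads it shares with Cd209a could be assigned to either. Since Cd209a takes part in the rule, ratios of genes that go with it were not free of the choice of cells.

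Chemokine genes lay in both directions. Of 14 chemokine genes tested, 5 were at least 2-fold lower and 2 at least 2-fold higher, with a median log2 ratio of -0.78. Without cells carrying other lineage genes, 4 of 9 were at least 2-fold higher and 1 lower, and the median turned to 0.84. Ccl17, a ligand of CCR4 that draws T cells including regulatory T cells, had 151 UMIs in 10 WT cells and 1 UMI in 1 Siah2-/- cell. WT cells held 55, 33, 28 and 26 UMIs at the top and no more than 3 in any other, so 4 cells carried nearly all of it. By subset these were 2 Cd209a/Clec10a-positive cells, 1 cDC1-type cell and 1 with neither marker set. Ccl17 stood at 134 CPM in WT and 1.53 CPM in Siah2-/-, with a log2 ratio of -6.45 (-11.76 to -3.95). Over every cell of the libraries it had 1600 UMIs in 127 WT cells and 239 in 37 Siah2-/- cells, and free RNA held 23.4 and 2.79 CPM.

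Ccl22, another CCR4 ligand, had 133 and 6 UMIs, a log2 ratio of -3.68 (-5.15 to -2.52). Of the WT molecules, 112 sat in 1 cell. The same cell had 97 UMIs of Fscn1, the actin-bundling gene of mature dendritic cells, 42 of Il12b, the shared subunit of IL-12 and IL-23, and 156 of Ccl5, together with 179 C1q UMIs among 17792 in all. It accounted for every Il12b UMI of the gate. Without the cells carrying other lineage genes, which leaves this cell out, Ccl22 had 18 and 6 UMIs (-1.22, -2.84 to 0.18) and Fscn1 7 and 5 UMIs. Ccl5, an inflammatory chemokine, had a log2 ratio of -1.43 over the gate and of -0.03 (-0.43 to 0.37) without those cells. Of 16 mature dendritic cell genes listed 8 passed the minimum over the gate, Fscn1, Ccl22 and Ccl17 through the WT count alone, and 4 were at least 2-fold lower and none higher, with a median of -1.19, and without cells carrying other lineage genes 1 of 5 was lower and none higher, with a median of -0.03.

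**Figure D5:**
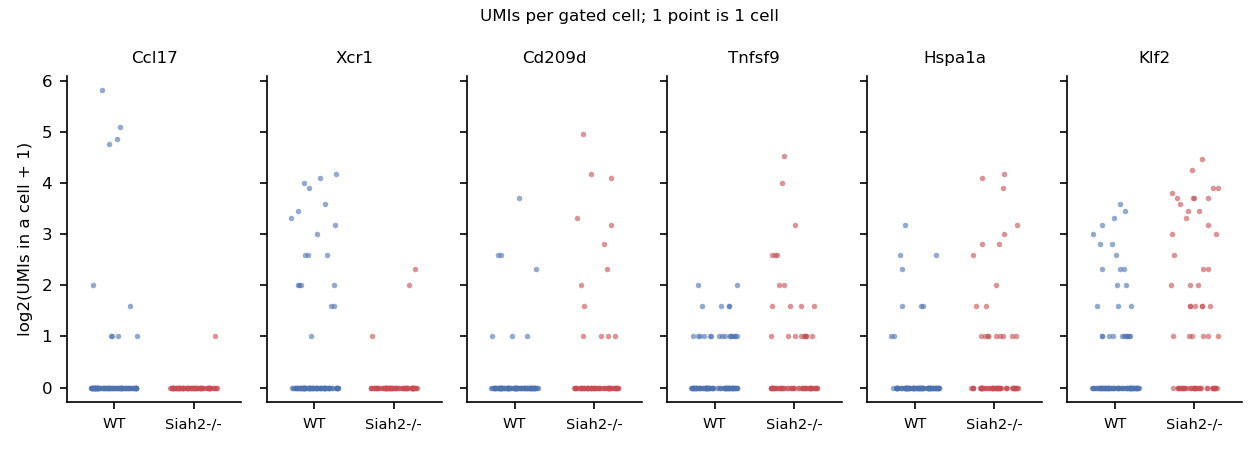
Each point is a gated cell of the WT (blue) or Siah2-/- (red) library, and the y axis is log2(UMIs in the cell + 1) for the gene named above each panel. The highest Ccl17 cells (55, 33, 28 and 26 UMIs) are all in WT, Xcr1 was counted in 19 WT and 3 Siah2-/- cells, and Klf2 reached 10 or more UMIs in 2 WT and 12 Siah2-/- cells.

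The CXCR3 ligands, which draw effector T cells, did not move together. Cxcl9 was counted in 31 WT and 16 Siah2-/- cells, at 248 and 127 CPM (log2 ratio -0.96, -1.33 to -0.60), and the ratio turned to 0.79 when cells were thinned to 4000 UMIs before the rule. Cxcl10 was at 492 and 588 CPM (0.26, 0.07 to 0.45) and at -0.02 when only cells with at least the lowest UMI count of WT were kept in both libraries. Cxcl16, a membrane-bound ligand of CXCR6, was at 386 and 205 CPM (-0.91, -1.20 to -0.63), and lower in all 3 sets of gated cells. Ccl4, another inflammatory chemokine, was higher in Siah2-/- over the gate (229 and 527 CPM, 1.20), with a log2 ratio of 3.99 (3.32 to 4.71) in the cDC1-type cells and of -0.57 (-0.97 to -0.18) in the Cd209a/Clec10a-positive cells. The monocyte chemoattractants Ccl12 (360 and 11 UMIs, -4.24) and Ccl7 (124 and 16 UMIs, -2.17) were lower, beside the larger number of C1q-high cells in WT, and both ratios changed sign when cells were thinned before the rule (Ccl12 0.10, Ccl7 0.21).

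Of 8 costimulatory and inhibitory genes tested, 1 was at least 2-fold higher and none lower, with a median log2 ratio of 0.18. The higher gene was Tnfsf9, described above, and without cells carrying other lineage genes the count was 1 and 0 of 6 with a median of 0.10. Cd86, a CD28 ligand, was counted in 79 WT and 50 Siah2-/- cells at 235 and 245 CPM (0.06, -0.23 to 0.35). Its relative Cd80 had 12 and 17 UMIs (1.29, 0.14 to 2.49). Cd40, the receptor through which CD4 T cells license dendritic cells, was at 106 and 76.6 CPM (-0.46, -0.97 to 0.02), and Cd274, which encodes PD-L1, at 40.8 and 46.0 CPM (0.17, -0.54 to 0.87). Cd83, which holds MHC class II at the surface, was at 118 and 221 CPM (0.90, 0.55 to 1.25).

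Among 4 cytokines tested none passed 2-fold in either direction. Il1b, the inflammatory cytokine, was the highest of them, counted in 60 WT cells with a median of 3 UMIs and in 58 Siah2-/- cells with a median of 7. Its level was 609 CPM in WT and 1127 CPM in Siah2-/- (log2 ratio 0.89, 0.74 to 1.04), with 381 and 899 CPM in free RNA and a log2 ratio of 1.14 in macrophages. Il15, which sustains CD8 T cells and natural killer cells, had 26 and 15 UMIs (-0.01, -1.03 to 0.96), and Il18 29 and 15 (-0.16, -1.17 to 0.78).

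Antigen presentation genes lay near the overall median. Of 15 MHC class II pathway genes, none was at least 2-fold higher and 1 at least 2-fold lower, with a median log2 ratio of 0.07 (none of 14 past 2-fold and 0.14 without cells carrying other lineage genes). The lower gene was Lgmn, a lysosomal protease also abundant in macrophages (578 and 241 CPM, -1.26), and H2-Oa was higher (0.59, 0.33 to 0.85), though at -0.26 after thinning before the rule. Of 21 MHC class I pathway genes, none passed 2-fold in either direction, with a median of -0.04 (1 of 20 higher and -0.11 without those cells). The immunoproteasome genes Psmb9 (-0.41), Psmb8 (-0.40) and Psme2 (-0.45) were at the lower end. Of 16 interferon gamma response genes 1 was at least 2-fold higher and none lower, with a median of 0.11. That gene was Irf1, the factor that carries the response (91.4 and 201 CPM, 1.13, 0.75 to 1.52). Of 23 type I interferon genes none was at least 2-fold higher and 1 lower, Oasl1 (-1.35), with a median of 0.08. Without cells carrying other lineage genes the interferon medians were 0.66, with 3 of 13 genes at least 2-fold higher, and 0.47, with 2 of 19. Within the cDC1-type cells these medians were 0.55 and 0.51, and within the Cd209a/Clec10a-positive cells -0.15 and -0.31. In the latter cells 4 of 23 type I genes were at least 2-fold lower and none higher, against 4.56% and 3.67% of all genes.

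Among 14 transcription factors of dendritic cells 1, Klf4, was at least 2-fold higher and none lower, with a median log2 ratio of 0.06 (none and 1 of 7, median -0.39, without cells carrying other lineage genes). Stat3, which relays FLT3 signals, was at 86.1 and 141 CPM (0.71, 0.28 to 1.14), and Tcf4, the plasmacytoid factor, at 78.1 and 124 CPM (0.67, 0.21 to 1.12, and -0.53 after thinning before the rule). Of 12 genes for antigen uptake and pattern recognition, 3 were at least 2-fold higher (Cd14, Clec10a and Cd209d) and none lower, with a median of -0.17 (1 and none of 6, median 0.38, without those cells). Of 6 chemokine receptors none was at least 2-fold higher and 2 lower, with a median of 0.13 (1 and 1 of 4, median 0.40, without those cells). The 2 genes were Xcr1 and Ccr9, a gut-homing receptor of plasmacytoid cells (84 and 21 UMIs, -1.21, -1.98 to -0.51, and -0.30 without Siglech-positive cells). Core dendritic cell genes had none of 12 past 2-fold in either direction and a median of -0.06 (none of 10, median -0.39, without those cells), with Itgax, which encodes CD11c, at 127 and 84.3 CPM (-0.59, -1.07 to -0.13) and Dpp4 at 56.8 and 87.3 CPM (0.62, 0.08 to 1.16).

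Transcripts of dividing cells were higher in the WT gate. After each cell was thinned to 4000 UMIs, 15 of 92 WT cells (16.3%) and 0 of 68 Siah2-/- cells, which allows a share of up to 4.41% at this thinned depth (3 cells of 68, with a Clopper-Pearson upper limit of 5.28%), had a UMI of Mki67 or Top2a, genes made by dividing cells. The difference was -16.3 points (-25.2 to -8.14). Without thinning the shares were 23.9% and 5.88%, a difference of -18.0 points (-28.3 to -6.81). Mature dendritic cells, which have mostly left the cell cycle, gave 0 of 15 and 1 of 25 after thinning. By set, 7 of 21 WT and 0 of 13 Siah2-/- cDC1-type cells had such a UMI, 4 of 47 and 0 of 36 Cd209a/Clec10a-positive cells, and 4 of 24 and 0 of 19 of the rest. The share was also lower in the macrophages (12.7% and 8.22%) and T cells (38.2% and 15.5%) of the Siah2-/- library. Free RNA held these transcripts as well: Mki67 was at 34.6 CPM in WT and 21.7 CPM in Siah2-/- free RNA against 27.5 and 0 CPM in the gated cells, and Top2a at 70.3 and 56.7 CPM against 71.9 and 10.7 CPM. The G2/M list summed to 2041 and 1423 CPM in free RNA and to 1781 and 384 CPM in the gated cells, so a single UMI does not mark a cell as dividing, and the part of free RNA was not tested. Of 28 G2/M genes listed 5 passed the minimum, mostly through the WT count, and 4 were at least 2-fold lower and none higher, with a median log2 ratio of -1.71. Of 6 S phase genes 1 was at least 2-fold lower, none was at least 2-fold higher and 1 lay above 0, where 948 of all 2285 genes did. Their median was -0.61. The mitotic gene Ube2c had 115 and 3 UMIs (-4.47, -6.77 to -2.89), Birc5, which encodes survivin, 105 and 6 (-3.34, -4.82 to -2.17), and the histone gene Hist1h2ap 431 and 12 (-4.38, -5.34 to -3.56).

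Metabolic genes differed by small amounts. Of 20 oxidative phosphorylation genes, none passed 2-fold and 18 were below 0, where 1337 of all 2285 genes were. The median log2 ratio was -0.24 against -0.07 over all genes. The medians were -0.15 in macrophages and -0.36 in T cells. Atp5b, a subunit of the ATP synthase, was at 882 and 642 CPM (-0.46, -0.63 to -0.29). Of 14 glycolysis genes 1 was at least 2-fold higher and none lower, with a median of 0.20 in the gated cells and 0.72 in macrophages. That gene was Hk2, an inducible hexokinase (40.8 and 115 CPM, 1.49, 0.94 to 2.06), which was at 0.77 with the Cd209a arm of the rule alone. Without cells carrying other lineage genes none of 9 glycolysis genes passed 2-fold, and the median was 0.07. Hif1a, the hypoxia factor whose stability SIAH2 affects through prolyl hydroxylases, had 66 and 52 UMIs (0.44, -0.11 to 0.99).

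Among the other genes with the highest ratios in Siah2-/- were Ifitm6, an interferon-induced membrane protein, at 198 and 596 CPM (1.59, 1.35 to 1.83), and Cd14, the lipopolysaccharide co-receptor, at 55.9 and 172 CPM (1.62, 1.16 to 2.09), a gene with more in free RNA (155 and 342 CPM) than in the gated cells. Rps27rt (1.79), Rpl36-ps3 (1.72), Rps26-ps1 (1.57) and Rpl23a-ps3 (1.56) resemble ribosomal protein genes so closely that reads could be split between copies, and their ratios are uncertain. They were also higher in the macrophages and T cells of the Siah2-/- library. Low ratios also belonged to the macrophage genes C1qc (-3.39), C1qa (-3.06), C1qb (-2.77) and Apoe (-2.16), and 6 of 10 genes of the macrophage list were at least 2-fold lower, with a median of -1.95. Without cells carrying other lineage genes, none of 4 macrophage genes left was at least 2-fold lower. Among plasmacytoid genes, 1 of 7 was at least 2-fold higher and 1 lower, with a median of -0.28, and Siglech was at 140 and 70.5 CPM (-0.99, -1.50 to -0.51). The higher gene was Cd209d, described above. Within the Cd209a/Clec10a-positive cells 5 of 8 were at least 2-fold lower and 1 higher, with a median of -3.87. Over all genes there, 4.56% were lower and 3.67% higher.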

How the data were processed

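Single-cell 3′ tag libraries of CD45-enriched cells from 1 WT and 1 Siah2-/- tumor preparation were analysed. The authors demultiplexed with bcl2fastq, aligned to mm10 and counted UMIs with Cell Ranger (versions are not given in the sources used here), then removed cells at the extremes of genes per cell and with high mitochondrial shares. The deposited count table holds UMI counts per gene and cell for 14654 genes, and a deposited companion table holds values on a natural log scale, scaled per cell, used only to list which cells it kept. The deposited unfiltered matrices hold counts for 27998 genes and 737280 barcodes per library. Barcodes with 1 to 100 UMIs (582342 in WT, 571512 in Siah2-/-) gave the free RNA profile. The count table and matrices differed at 1919 of 66145404 compared values in WT and 1866 of 81526696 in Siah2-/-. No columns were left unassigned.

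Gated cells were taken from the raw counts by the rule given above, and their UMIs were summed per library. Genes with at least 100 UMIs over both libraries' gated cells (50 within a subset) were compared, leaving out genes of the rule, and "called" means a ratio of at least 2 in CPM. No model was fitted and no test was run, because each genotype has 1 library. The gated cells and the gene lists were chosen with earlier results of these data known. Genes were named by these rules: a set of chemokine, cytokine and costimulation genes, the 12 highest and 12 lowest ratios among genes with no cell above 25% of the UMIs in the library where the gene is higher, up to 4 genes per list, and 10 genes each way between populations. Those between populations were ranked by the smaller in size of their WT and Siah2-/- ratios, so their shared direction in both libraries follows from the choice. Ccl4, and list genes given by their ratio alone, were named after their values were seen. Macrophages had at least 2 Csf1r and 5 C1q UMIs (Mgl2-positive ones at least 1 of Mgl2 and of Csf1r), T cells at least 2 CD3 UMIs and under 5 of H2-Ab1, and mature dendritic cells at least 1 UMI of Ccr7 and of Fscn1. No doublet caller was run, and leaving out the 5% of gated cells with most UMIs is an alternative. Ratios and intervals were tried on simulated Poisson totals per gene and library, with no variation between cells. That is the model the intervals assume, so the simulation cannot show how they cover counts held by few cells. Promoters came from RefSeq on GRCm38.p6. Python 3.11.15, numpy 2.4.6, scipy 1.17.1, pandas 2.3.3 and matplotlib 3.10.9 were used.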

Additional observations from a re-analysis of the deposited data

Results flagged for a closer look

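Barcodes that passed the rule but were not in the count table gave the signal outside the main measurement. The unfiltered matrices held 38 such barcodes with at least 1000 UMIs in WT, of 5550 outside the table (0.685%, 95% interval 0.485 to 0.939), and 2 in Siah2-/-, of 3954 (0.0506%). Of the 38, 36 lay below the shallowest WT cell of the table (6670 UMIs), with a median of 5529 UMIs, and the 2 in Siah2-/- had a median of 3403.5. The WT barcodes held 157 UMIs of Cd209a, 143 of Ccl17 (574 CPM), 518 of Ly6c2 (2081 CPM) and 1 of Xcr1, and 10 of them had Siglech. They are in none of the comparisons above, apart from the alternative with every barcode of at least 1000 UMIs. Counting every barcode with at least 1000 UMIs, the rule found 130 in WT and 70 in Siah2-/-.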

How the results depend on the processing

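No paired analysis was possible because each genotype has 1 library, and leaving out a replicate was not possible for the same reason. The alternatives with all barcodes of at least 1000 UMIs, without Siglech-positive cells, without cells holding Siglech or high C1q or Ly6c2, and without the cell with most UMIs of a gene were chosen after seeing the data. The log2 ratio of the share of gated cells was -0.0792 with the Cd209a arm alone. Genes at least 2-fold higher numbered 32 with the Cd209a arm alone, 126 with a minimum of 50 UMIs and 910 with none. Genes at least 2-fold lower numbered 116 and 971 with those minimums, 30 after thinning before the rule, 33 with the Cd209a arm alone, 23 without high-C1q cells, 33 without Siglech cells, and 26 without Siglech, C1q and Ly6c2 cells. The share of cDC1-type cells (log2 ratio -1.33 to 0.51) and the difference in cells with Mki67 or Top2a (-21.8 to -13.3 points) stayed within the spread of the reported value in the alternatives run. Of 329 list medians under an alternative, 38 (12 of 21 lists) had the opposite sign to the reported one, and of 2058 single-gene ratios 76 (33 of 116 genes), many of them near 0. The larger ones among lists with medians near 0 were type I interferon genes (-0.41) with the Cd209a arm alone, chemokine receptors (-0.42) with a minimum of 50 UMIs, and antigen uptake genes (0.38) and transcription factors (-0.39) without Siglech, C1q and Ly6c2 cells.

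Of 21 named genes at least 2-fold higher and 28 at least 2-fold lower, 9 and 18 were under 2-fold in at least 1 alternative. The 9 were Atf3 (0.87, Cd209a arm alone), Ifitm6 (0.84) and Hk2 (0.77) under the same alternative, Irf1 (0.93, all barcodes of at least 1000 UMIs), Cd209d, Cd7, Klf4 and Clec10a as given above, and Sparc. Among the 18, beside those listed next, were Naaa (-0.22, Cd209a arm alone), Ppt1 (-0.41), Ccl22 (-0.64) and C1qc (-0.77) after thinning before the rule. Hspa1a, Klf2, Tnfsf9, Dusp1, Xcr1, Ccl17 and Ube2c stayed past 2-fold in each alternative run.

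Ratios whose reported interval excluded 0, or list medians whose genes' median interval limits did, turned sign as follows, as log2 ratios of Siah2-/- over WT. After thinning to 4000 UMIs before the rule, the chemokine list was at 0.42, Cxcl9 0.79, H2-Oa -0.26, Chil3 0.46, Ccl12 0.10, Ccl7 0.21, Gpr183 -0.46, Tcf4 -0.53 and Tipin 0.14. With the Cd209a arm alone, Cxcl10 was at -0.0768, H2-Oa -0.38, H2-Q4 -1.30, Ifit3b -0.56 and Ifit3 -0.46. Without high-C1q cells, the mature dendritic list was at 0.16, the chemokine list 0.57, Fscn1 0.0213, Ccl5 0.16, Ccl7 0.68, Cd63 0.53 and Adgre1 0.53. Without Siglech, C1q and Ly6c2 cells, the chemokine list was at 0.84, Chil3 1.04, Cd8b1 1.37, Ccl7 0.66, Lgmn 0.0549, Cd63 0.50, Adgre1 0.37 and Fcgr1 0.48. Without Siglech cells alone, Cd8b1 was at 2.28. With the lowest WT UMI count in both libraries, Cxcl10 was at -0.0188, and with at least 10 H2-Ab1 UMIs, Fcgr1 was at 0.00759. Without the 5% of cells with most UMIs, Sparc was at -0.19 and Ifit3b -0.34, with each cell weighted equally Ifit3b was at -0.18 and Ifit3 -0.0235, and without the cell with most UMIs Sparc was at -0.615. The cause was not tested. C1q genes, and Siglech and Ly6c2, were given no value where the alternative selects on them.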
